A study of Caenorhabditis elegans with 14 samples.

Results

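Small RNAs of 21 to 26 nucleotides were counted at the genes of 2 large Caenorhabditis elegans protein families. These were the F-box genes named fbxa, fbxb and fbxc and the MATH-domain genes named bath and math. Of the 20541 genes in the count table, 394 carried 1 of these 5 names, leaving out bath-45, and 183 of them had at least 100 counts over the 12 libraries. These 183 genes, all annotated as protein-coding, are the members described here: 68 fbxa, 54 fbxb, 19 fbxc, 29 bath and 13 math genes. Another 14 family genes had no count and 197 had fewer than 100. The members were chosen by name and by their summed counts, so their levels are a description. At the edge of the threshold, math-7 with 102 counts and fbxb-34 with 103 were inside, and math-41 with 96 and fbxb-87 with 98 were outside. All 183 members passed the filter on low counts and were tested.

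The study sequenced small RNAs of synchronized young adults to ask how silencing of the endogenous sid-1 gene is inherited. Worms of 5 kinds were compared. The hrde-1;HC125 strain (HC995, 2 libraries), called the hrde-1 mutant below, carries the Psid-1::gfp transgene of HC125 together with a mutation in hrde-1. HC125 (4 libraries) carries Psid-1::gfp, and its labels name no hrde-1 mutation. The HC83 non-array F21 worms (2 libraries) lack the array and are described as de-silenced, and the HC83 non-array F6 worms (2 libraries) lack it and are described as silenced. N2 (2 libraries) is the wild type. No label tells if the replicates came from separate cultures, so each p-value measures the spread between these libraries, which may be technical. All libraries were made from RNA treated with a polyphosphatase, which lets small RNAs with a 5′ triphosphate enter the library, and their source is given as worms, with no tissue named.

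F-box proteins are the substrate-binding subunits of SCF ubiquitin ligases, in which SKP1 links them to a cullin. MATH-domain proteins that also have a BTB domain bring substrates to ligases built on the cullin CUL-3. The domains of the bath and math genes were not checked here, so this need not hold for each of them. Both families have expanded in nematodes, where many copies sit in tandem clusters and most have no assigned substrate. HRDE-1 is an Argonaute protein of germline nuclei that binds antisense small RNAs and carries silencing to the next generations, and SID-1 is a channel for double-stranded RNA. Small RNA counts at a gene do not measure its messenger RNA or protein.

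Library totals ran from 451389 to 6379388 counts, a 14.1-fold range, and 1.75% to 2.88% of each library's counts fell on the members. Between replicates of a group, the correlation of log2 levels over the members ran from 0.914 in N2 to 0.991 in the non-array F6 worms. Levels are given as CPM, in which the counts of a library's tested genes sum to 1000000 before TMM scaling. Small RNAs at sid-1 stood at 557 and 506 CPM in the hrde-1 mutant, 2542, 2398, 2031 and 2279 CPM in HC125, 731 and 801 CPM in F21, 4732 and 4159 CPM in F6 and 836 and 786 CPM in N2. Small RNAs at hrde-1, which do not check its mutation, stood at 471 and 540.3 CPM in the mutant and 841, 839, 1273 and 1096 CPM in HC125, and ranged from 816 to 1016 CPM in the other groups. Summed over 40 sperm genes, most of them coding for major sperm proteins, levels were highest in N2 replicate 2 at 2001 CPM and in HC125 replicates 1 and 2 at 1551 and 1405 CPM, while the other libraries lay between 449.8 and 1081 CPM. Those 3 libraries were also left out together, which leaves N2 with replicate 1 alone, a shallow library of 470115 counts. The files are bulk counts, in which fewer cells of a type and fewer small RNAs per cell cannot be told apart.

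Small RNA levels differed widely between members. Averaged over the 12 libraries, the median member had 27.7 CPM and the range ran from 3.29 to 3594 CPM. Per kb of exon, the median was 22.9 CPM per kb over the 183 members and 20.4 CPM per kb over all named genes tested. The family medians were 20.5 CPM per kb for fbxa, 13.02 for fbxb, 46.7 for fbxc, 69.9 for bath and 25.8 for math. A few genes held most of the signal, since the 10 members with the highest CPM took 63.2% of all member CPM in the hrde-1 mutant, 58.6% in HC125 and 57.7% in N2. These 10 were bath-20, fbxb-14, fbxc-43, fbxb-97, fbxa-218, fbxa-67, bath-13, bath-24, fbxb-100 and bath-23.

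Per kb, fbxb-14 on chromosome II (chrII:582111-582749, WBcel235) had the highest level of the members at 4625 CPM per kb. It was followed by fbxc-43 (chrII:4234903-4235996) at 2633 CPM per kb, bath-20 (chrII:2040276-2042547) at 1875 CPM per kb and fbxb-97 (chrII:1846977-1848161) at 1289 CPM per kb. Among the fbxa genes the highest were fbxa-218 at 732, fbxa-120 at 356 and fbxa-67 at 287 CPM per kb, and among the math genes math-1 at 376, math-49 at 125 and math-31 at 74.3 CPM per kb. fbxb-14 overlaps W08F4.12 on the same strand, fbxa-67 overlaps a pseudogene and fbxb-100 overlaps a noncoding RNA on the opposite strand. In all, 34 members overlap another gene annotated as protein-coding, pseudogene, noncoding RNA, lincRNA, antisense RNA or transposable element. Overlaps with other kinds of annotated gene were not looked for. The sources used here do not state a strand setting for the counting, so reads of overlapping pairs cannot be told apart.

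Summed over all 183 members, small RNAs came to 20295 and 18264 CPM in the hrde-1 mutant and to 24638, 23621, 22318 and 22747 CPM in HC125. The sums were 27894 and 25286 CPM in F21, 27452 and 26569.8 CPM in F6 and 30013 and 23332 CPM in N2. The 2 mutant libraries lay below every other library. The fbxa genes had 4119 and 3515 CPM in the hrde-1 mutant, against 6413, 6284, 4610.1 and 4714 CPM in HC125 and 7241 and 6331 CPM in N2. For these genes too the mutant libraries were the lowest of the 12. The fbxb sums overlapped, with 6202 and 5824 CPM in the hrde-1 mutant, 6735, 6119, 6414 and 6417 CPM in HC125 and 8554 and 5938 CPM in N2.

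**Figure D1:**
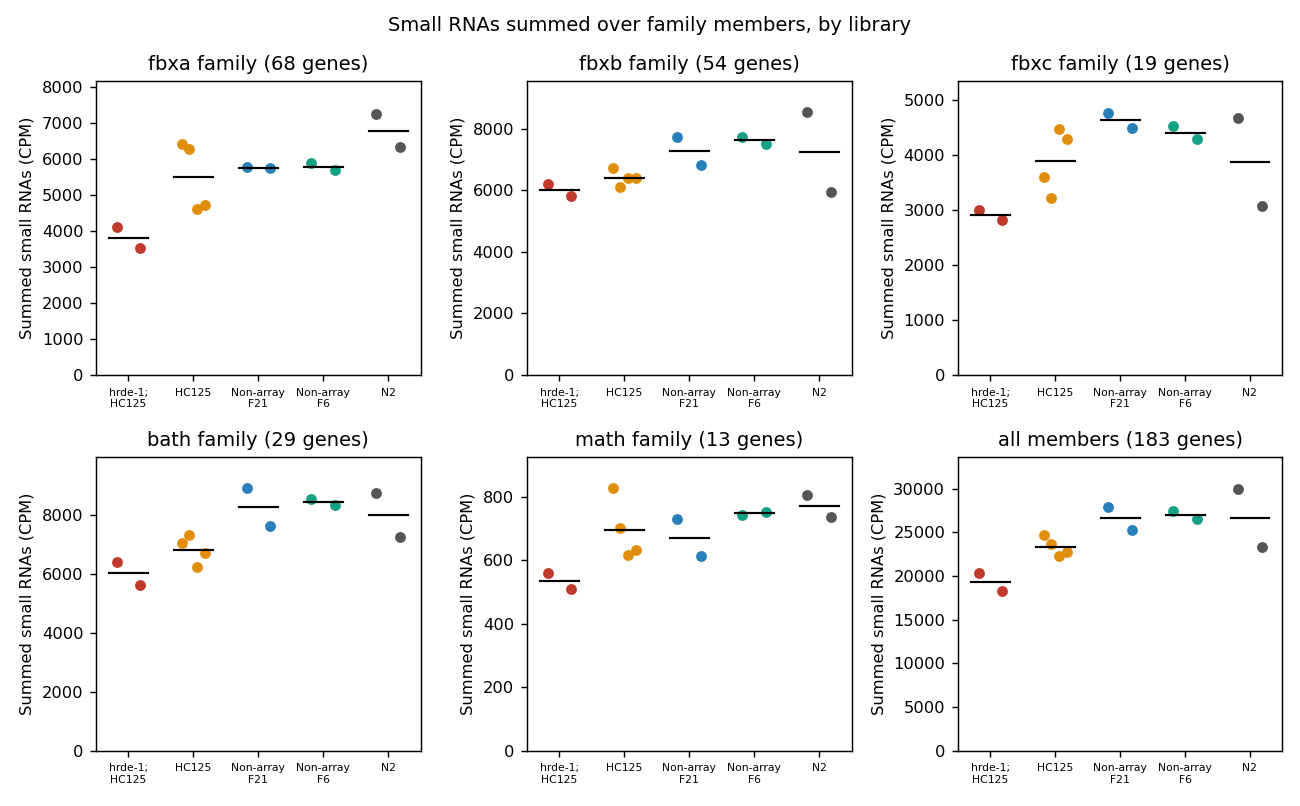
Small RNAs summed over the members of each family and over all 183 members, in CPM, with 1 point per library and a line at each group's mean. The summed level of all members is lowest in the 2 hrde-1;HC125 libraries, at 20295 and 18264 CPM, and the fbxa panel shows the same order, while the fbxb points of hrde-1;HC125, HC125 and N2 overlap.

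The comparison of the hrde-1 mutant with HC125 asks what the members' small RNAs do when HRDE-1 is lost in the array strain. Small RNAs fell at 58 of the 183 members and rose at 10, with edgeR's quasi-likelihood test and an adjusted p under 0.05 over all 10470 genes tested. The falls made up 31.7% of the members, against 9.2% of all genes tested and 9.87% of the genes with at least 100 counts. The rises made up 5.46%, against 7.76% of all genes tested and 8.52% of those with at least 100 counts. The median log2 fold change was -0.59 over the members and -0.03 over all genes tested. Of the 58 falls, 48 exceeded 2-fold and 7 exceeded 8-fold. The counts of falls by size, here and against N2, and of calls kept when libraries were left out, were made for the members alone.

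The count depended on the 2 mutant libraries: 43 members were called without replicate 1 and 41 without replicate 2, against 10.5% and 10.1% of all genes tested. Of the 68 calls, 37 were made again in every fit that left out 1 of the 12 libraries, among them 34 falls and 3 rises, and no call changed sign. Without the 3 libraries with the most sperm-gene small RNAs, 66 members were called lower and 17 higher, against 11.2% and 9.74% of all genes tested. Small RNAs at some genes of 4 marker lists moved in the same comparison. On the intestine list 0 of the 6 genes tested were called, with a median log2 fold change of -0.28. On the cuticle list the 1 gene tested was not called, at -0.02. Of 15 germline and oocyte genes, 8 were called higher and 0 lower, with a summed level of 3969.6 to 4324 CPM in the hrde-1 mutant and 2695 to 3356 CPM in HC125. Of 5 neuron genes, 4 were tested and 2 were called higher, rab-3 (log2 fold change 1.79) and tax-4 (9.34). The neuron list had a summed level of 283 to 286 CPM in the hrde-1 mutant and 33.3 to 49.5 CPM in HC125, and such a sum can rest on a single gene. Of 40 sperm genes, 38 were tested and fer-1, spe-15 and spe-41 were called lower, with 739.5 to 1081 CPM in the hrde-1 mutant and 534 to 1551 CPM in HC125. Of 6 muscle genes, unc-54 was called higher (log2 fold change 1.06) and lev-11 lower (-1.07). The muscle list had 1331 to 2768 CPM in the hrde-1 mutant and 952 to 1110.4 CPM in HC125. The median log2 fold changes over the genes tested were 0.47 for the germline and oocyte list, 1.22 for neuron, 0.06 for sperm and -0.15 for muscle, where the median and the sum go opposite ways. None of the genes on these 4 lists was at 0 in either group. The part of these lists in the members' changes was not tested.

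The falls were spread over the 5 families. Small RNAs fell at 25 of 68 fbxa genes, with a median log2 fold change of -0.72 over the family, and at 16 of 54 fbxb genes, with a median of -0.90. They fell at 7 of 19 fbxc genes, with a median of -0.28, at 7 of 29 bath genes, with a median of -0.04, and at 3 of 13 math genes, with a median of -0.07. Rises were called at 3 fbxa, 1 fbxb, 1 fbxc, 4 bath and 1 math genes. The called log2 fold changes of falls ran from -5.24 to -0.68 in fbxa, from -2.45 to -0.86 in fbxb, from -1.77 to -0.80 in fbxc, from -1.84 to -0.96 in bath and from -2.67 to -0.91 in math. Whether the families differed in their changes was not tested.

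**Figure D2:**
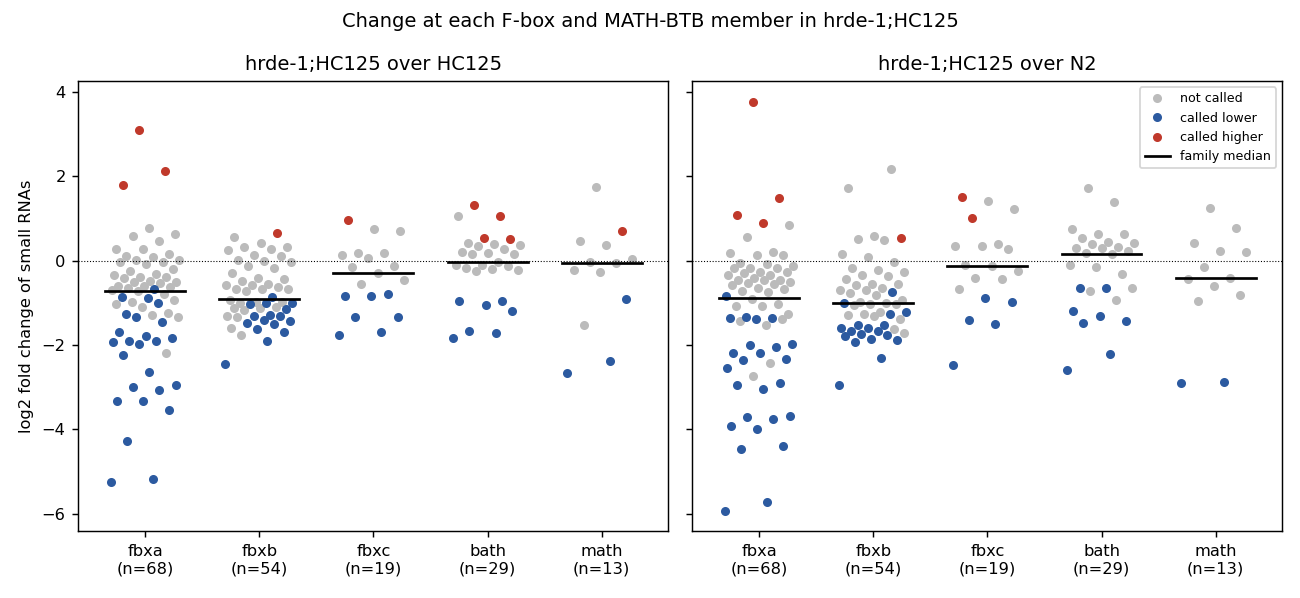
Log2 fold change of small RNAs at each of the 183 members, by family, for hrde-1;HC125 over HC125 (left) and over N2 (right); blue points were called lower, red points higher and grey points neither, and black lines are family medians. Falls reach -5.24 against HC125 and -5.93 against N2, both in fbxa, and the fbxb medians are -0.90 and -1.01.

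The deepest falls were at fbxa genes, whose products are predicted F-box proteins. fbxa-184 (chrII:1710259-1711417) had 1.84 and 1.89 CPM in the mutant libraries, against 109.7, 90.8, 55.5 and 44.5 CPM in HC125 (log2 fold change -5.17, SE 0.40, adjusted p = 3.66e-07). In the same chromosome II cluster, fbxa-166 (chrII:1616829-1619048) had 5.70 and 3.50 CPM in the hrde-1 mutant, against 142, 113, 72.2 and 71.5 CPM in HC125 (log2 fold change -4.28, SE 0.37, adjusted p = 2.00e-06). For both genes the lowest HC125 library lay more than 8-fold above the highest mutant library. fbxa-163 (chrII:1609252-1610730), from the same cluster, had 2 counts in all in the hrde-1 mutant and 56 in HC125. Its level was 0.168 and 0.270 CPM in the hrde-1 mutant, against 30.1, 9.34, 4.995 and 5.79 CPM in HC125, a ratio of 37.4 between HC125 and the mutant with an exact 95% counting interval of 9.88 to 316 (adjusted p = 7.46e-04). Its fitted log2 fold change was -5.24, and -4.47 without the 3 libraries with the most sperm-gene small RNAs. The HC125 libraries themselves spread from 4.995 to 30.1 CPM at this gene. The interval covers counting error only, because PCR copies were not told apart by molecular identifiers.

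fbxa-120 on the X chromosome (chrX:17302719-17304036) combined a high level with a deep fall. It had 41.1 and 33.2 CPM in the hrde-1 mutant, against 443, 548, 391.9 and 353 CPM in HC125 (log2 fold change -3.53, SE 0.20, adjusted p = 4.62e-10). The F21, F6 and N2 libraries, at 448 and 469, 514 and 518 and 628 and 553 CPM, all lay far above the mutant libraries. fbxa-61 on chromosome III (chrIII:1239048-1242799) had 19.4 and 17.5 CPM in the hrde-1 mutant, against 245, 216.5, 158 and 142 CPM in HC125 (log2 fold change -3.32, SE 0.23, adjusted p = 1.17e-08). Here too no mutant library reached the range of any other group.

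On chromosome V, fbxa-115 (chrV:20190535-20192152) had 5.87 and 7.28 CPM in the hrde-1 mutant, against 94.6, 58.6, 33.3 and 43.1 CPM in HC125 (log2 fold change -2.99, SE 0.36, adjusted p = 3.13e-05). fbxa-90 (chrV:16966814-16968586) had 2.01 and 1.62 CPM in the hrde-1 mutant, against 25.8, 11.9, 12.2 and 13.4 CPM in HC125 (log2 fold change -2.94, SE 0.42, adjusted p = 5.54e-05). At both genes the groups did not overlap, and HC125 replicate 1 was the highest of its group. fbxa-111 (chrV:16947142-16949709) had 12.1 and 8.63 CPM in the hrde-1 mutant, against 133, 158, 48.3 and 44.5 CPM in HC125 (log2 fold change -3.06, SE 0.62, adjusted p = 0.00944). HC125 replicates 1 and 2 lay far above replicates 3 and 4 at this gene. Its call ended without either mutant library, at a log2 fold change of -3.35 and adjusted p = 0.0696 without replicate 1, and of -2.91 and adjusted p = 0.0993 without replicate 2. Without HC125 replicates 1 and 2 and N2 replicate 2 it was -2.11 (adjusted p = 5.03e-11). fbxa-112 overlaps fbxa-111 on the same strand, so their counts may share reads.

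Of the fbxb genes, fbxb-97 (chrII:1846977-1848161) carried the most small RNAs among those that fell. It had 518 and 424 CPM in the hrde-1 mutant, against 1617, 1549, 1448 and 1514 CPM in HC125 (log2 fold change -1.70, SE 0.17, adjusted p = 8.51e-07), and 1778 and 1635 CPM in F21, 1814 and 1773 CPM in F6 and 2116 and 1341 CPM in N2. Neither mutant library exceeded 518 CPM, and the lowest of the other 10 libraries, N2 replicate 2, had 1341 CPM. The largest fbxb fall, named after its value was seen, was at fbxb-53, with 2.85 and 1.62 CPM in the hrde-1 mutant, against 15.1, 10.2, 12.8 and 13.9 CPM in HC125 (log2 fold change -2.45, adjusted p = 3.66e-04), and this gene overlaps F36H5.10 on the same strand. Its fall kept its call in each of the 12 fits that left out 1 library.

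The 2 fbxc genes with the highest levels per kb, neighbours on chromosome II, gave different calls. fbxc-44 (chrII:4236504-4237751) had 223 and 197 CPM in the hrde-1 mutant, against 368, 309.9, 446 and 377 CPM in HC125 (log2 fold change -0.84, SE 0.15, adjusted p = 6.42e-04). Its neighbour fbxc-43 had 1934 and 1805 CPM in the hrde-1 mutant, against 2333, 1979, 3098 and 2929 CPM in HC125, a difference that did not pass the test (log2 fold change -0.47, adjusted p = 0.112). At both genes the mutant libraries lay below all 4 HC125 libraries. The largest fbxc fall, named after its value was seen, was at fbxc-8 on chromosome IV, with 26.7 and 21.6 CPM in the hrde-1 mutant, against 92.5, 92.5, 71.6 and 81.0 CPM in HC125 (log2 fold change -1.77, adjusted p = 7.00e-07). The third highest fbxc gene per kb, fbxc-39, had 217 and 226 CPM in the hrde-1 mutant and 168, 181, 201 and 248 CPM in HC125 and was not called (adjusted p = 0.751).

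Among the bath and math genes, 3 neighbours on chromosome II differed. bath-20 had 2891 and 2404 CPM in the hrde-1 mutant and 3344, 3641, 2589 and 2952 CPM in HC125, and the groups overlapped (log2 fold change -0.24, adjusted p = 0.345). bath-24 (chrII:2044619-2045605) had 174 and 177 CPM in the hrde-1 mutant, against 624, 654, 513 and 517 CPM in HC125 (log2 fold change -1.71, SE 0.19, adjusted p = 2.06e-06). math-1 (chrII:2046053-2046656), which lies next to it, had 42.2 and 42.6 CPM in the hrde-1 mutant, against 271, 228, 209 and 191 CPM in HC125 (log2 fold change -2.38, SE 0.16, adjusted p = 5.77e-09). At bath-24 and math-1 both mutant libraries lay below every library of the other 4 groups, with less than 3 CPM between the pair. The largest bath fall, named after its value was seen, was at bath-34 on chromosome I, with 8.55 and 6.74 CPM in the hrde-1 mutant, against 30.1, 43.3, 24.4 and 18.7 CPM in HC125 (log2 fold change -1.84, adjusted p = 8.26e-04). The abundant bath-13, with 484 and 393 CPM in the hrde-1 mutant and 568, 608, 399.6 and 469 CPM in HC125, and math-49, with 220.5 and 189 CPM in the hrde-1 mutant and 204, 159, 135 and 152 CPM in HC125, were not called (adjusted p = 0.449 and 0.16 with edgeR).

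The remaining genes of the 10 with the highest CPM were not called. fbxa-218 had 1192 and 917 CPM in the hrde-1 mutant and 1688, 1508, 1175 and 1256 CPM in HC125 (log2 fold change -0.41, adjusted p = 0.118). fbxa-67 had 663 and 537 CPM in the hrde-1 mutant and 525, 598, 421 and 463 CPM in HC125 (log2 fold change 0.26, adjusted p = 0.32). At both genes the 2 groups overlapped. fbxb-100 had 379.9 and 374 CPM in the hrde-1 mutant and 484, 396, 476 and 499 CPM in HC125 (log2 fold change -0.30, adjusted p = 0.253). bath-23 had 526 and 450.5 CPM in the hrde-1 mutant and 413, 379, 305 and 365 CPM in HC125 (log2 fold change 0.43, adjusted p = 0.0532). The mutant libraries lay below all 4 HC125 libraries at fbxb-100 and above them at bath-23, in neither case past the test.

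Small RNAs rose at 3 fbxa genes. fbxa-125 on chromosome I (chrI:10646478-10647841) had 181 and 159 CPM in the hrde-1 mutant, against 10.8, 56.9, 9.44 and 9.21 CPM in HC125 (log2 fold change 3.09, SE 0.61, adjusted p = 0.00845). The groups did not overlap, and HC125 replicate 2 stood above the other 3 HC125 libraries. Without mutant replicate 1 the log2 fold change was 2.96 with adjusted p = 0.0615, and without replicate 2 it was 3.12 with adjusted p = 0.0535, so either omission ended the call. Without HC125 replicate 2 it was 4.15 (adjusted p = 7.47e-11). fbxa-16 on the X chromosome (chrX:119663-122279) had 86.7 and 88.7 CPM in the hrde-1 mutant, against 21.5, 16.1, 23.3 and 19.7 CPM in HC125 (log2 fold change 2.12, SE 0.18, adjusted p = 9.65e-08). fbxa-139 on chromosome V (chrV:15593384-15594673) had 204 and 183 CPM in the hrde-1 mutant, against 68.8, 55.2, 54.4 and 52.3 CPM in HC125 (log2 fold change 1.79, SE 0.14, adjusted p = 3.92e-08). At these last genes each mutant library also lay above every F21, F6 and N2 library, and both calls held without any 1 library.

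The single fbxb rise was at fbxb-14, the member with the highest level per kb. It had 4105 and 4006 CPM in the hrde-1 mutant, against 2667, 2242, 2822 and 2629 CPM in HC125 (log2 fold change 0.65, SE 0.14, adjusted p = 0.00322). The highest of the other 10 libraries, N2 replicate 1, had 3303 CPM, below both mutant libraries, and the call held without any 1 library. fbxc-18 (chrII:965575-967062) had 166 and 151 CPM in the hrde-1 mutant, against 114, 108, 57.2 and 64.7 CPM in HC125 (log2 fold change 0.96, SE 0.24, adjusted p = 0.012). HC125 replicates 1 and 2 lay between the others of their group and the mutant libraries. Its call ended without mutant replicate 1 (log2 fold change 0.90, adjusted p = 0.102) and without replicate 2 (0.99, adjusted p = 0.0898).

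Among the bath and math genes, rises were called at bath-38, bath-36, bath-30, bath-29 and math-31. bath-38 (chrII:10042780-10045270), which overlaps F52H3.11 on the same strand, had 20.1 and 15.9 CPM in the hrde-1 mutant, against 15.1, 5.09, 6.66 and 6.58 CPM in HC125 (log2 fold change 1.31, SE 0.37, adjusted p = 0.0189). The mutant and HC125 libraries were separated by less than 1 CPM, with HC125 replicate 1 above the rest of its group. The call ended without either mutant library or without HC125 replicate 4, at log2 fold changes of 1.12 to 1.43 and adjusted p of 0.0554 to 0.200. bath-36 on chromosome V (chrV:15187888-15189588), which overlaps a noncoding RNA on the same strand, had 38.1 and 33.2 CPM in the hrde-1 mutant, against 17.2, 18.7, 14.99 and 17.9 CPM in HC125 (log2 fold change 1.05, SE 0.34, adjusted p = 0.0423). Its call ended when any of the mutant, HC125 or F6 libraries was left out, with adjusted p of 0.0583 to 0.226, and F21 replicate 2 at 52.5 CPM exceeded both mutant libraries. The call also ended with library size scaling (log2 fold change 0.93, adjusted p = 0.0761), with DESeq2 (1.05, adjusted p = 0.0906) and without N2 replicate 2 and HC125 replicates 1 and 2 (1.09, adjusted p = 0.0763).

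math-31 (chrII:1912450-1912841) had 41.1 and 35.6 CPM in the hrde-1 mutant, against 23.7, 18.7, 31.1 and 20.5 CPM in HC125 (log2 fold change 0.71, SE 0.23, adjusted p = 0.0455). The groups did not overlap. The call ended without any of 9 libraries, which were both mutant, both F6 and both F21 libraries and HC125 replicates 1, 2 and 4, with adjusted p of 0.0503 to 0.314. It also ended with library size scaling (log2 fold change 0.59, adjusted p = 0.0846), in a fit of only the 2 groups (0.70, adjusted p = 0.0641) and with DESeq2 (0.71, adjusted p = 0.101). bath-30 and bath-29, chosen after their values were seen because they lie in 1 cluster, had log2 fold changes of 0.53 and 0.50 (adjusted p = 0.022 and 0.0285 with edgeR), and bath-29 overlaps F14D2.8 on the opposite strand. They were called in 7 and 5 of the 12 fits that left out 1 library.

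**Figure D3:**
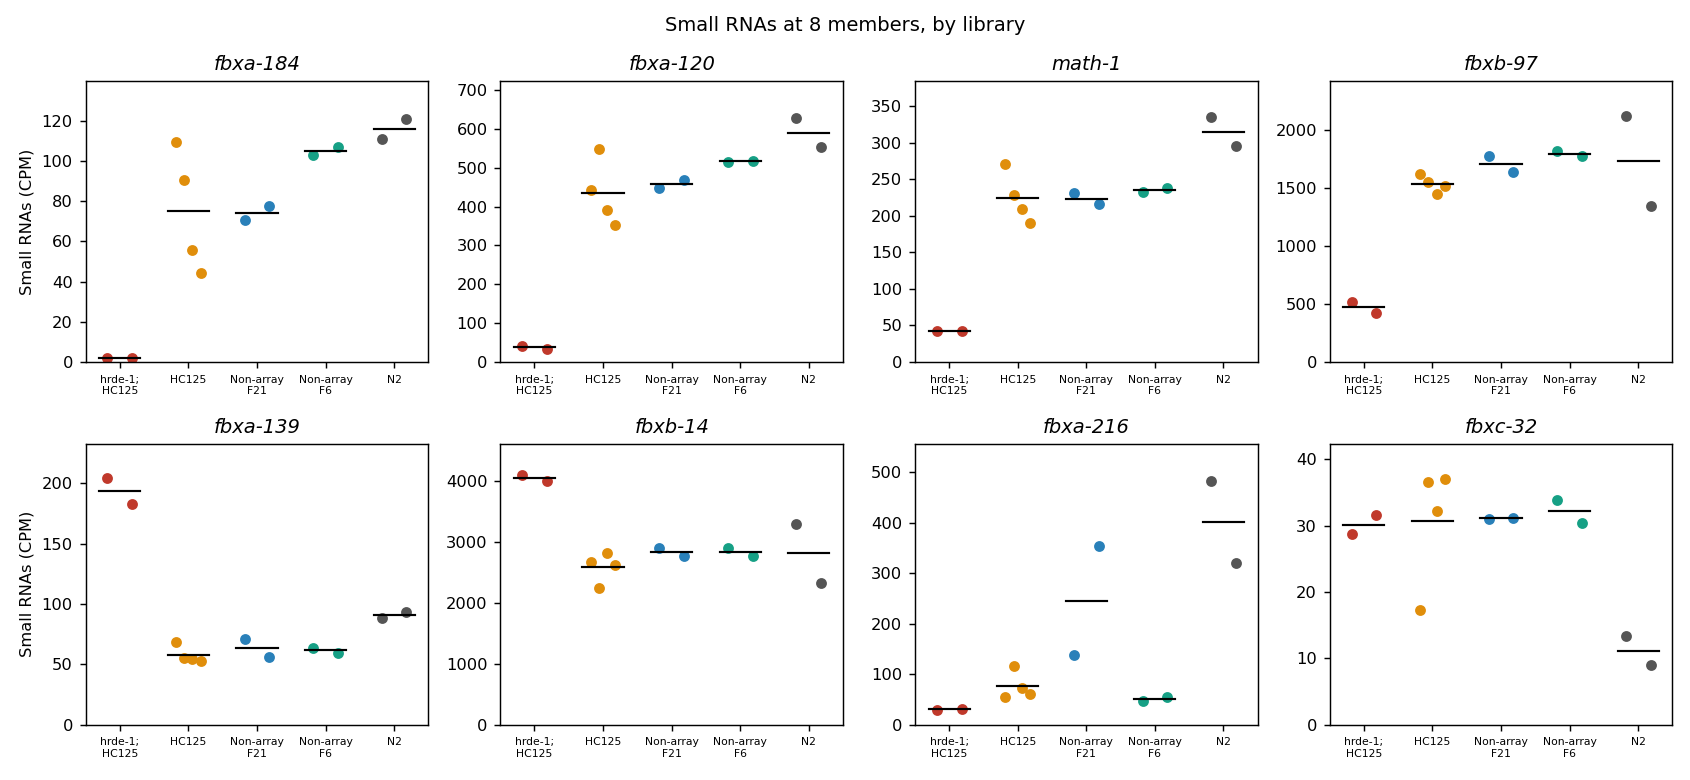
Small RNA level in CPM at 8 members, 1 point per library, with a line at each group's mean; the groups run from hrde-1;HC125 on the left to N2 on the right. fbxa-184, fbxa-120, math-1 and fbxb-97 are lowest in hrde-1;HC125, fbxa-139 and fbxb-14 are highest there, and fbxa-216 and fbxc-32 separate N2 from F6.

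The members were concentrated on chromosome II, which held 90 of the 183, or 49.2%, against 18.3% of all genes tested. Chromosome V held 37, III held 25, I held 15, and IV and X held 8 each. Falls in the hrde-1 mutant against HC125 were called at 25 of 90 members on II, 12 of 25 on III, 11 of 37 on V, 5 of 15 on I, 3 of 8 on IV and 2 of 8 on X. Over all genes tested, falls made up 7.34% on II, 7.64% on III, 11.8% on V, 8.76% on I, 5.98% on IV and 17.6% on X. Joining members no more than 50000 bp apart, a distance set after the data were seen, gave 18 clusters of 3 or more members, which together held 123 members. Whether clustered genes differ from single genes was not tested.

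The clusters were mixed. In the cluster of 25 members at chrII:1818889-2093876, which holds fbxb-97, bath-20, bath-24 and math-1, 11 members were called lower and 1 higher, with log2 fold changes from -2.67 to 1.74 and a median of -0.91. The cluster of 18 at chrII:1538889-1759452, with fbxa-163, fbxa-166 and fbxa-184, had 6 lower and 0 higher, from -5.24 to 0.24. Its summed level was 248 and 198 CPM in the hrde-1 mutant, against 739.8, 711, 451 and 479 CPM in HC125, and the groups did not overlap. The cluster of 15 at chrII:913672-1049949, mostly fbxc and fbxb genes, had 4 lower and 1 higher, with summed levels of 690.4 and 668 CPM in the hrde-1 mutant and 690.3, 684, 699 and 824 CPM in HC125, which overlapped. In contrast, the cluster of 7 bath genes at chrII:3343731-3378834 had 2 rises, bath-30 and bath-29, and no fall, and its summed level was 1250.4 and 1077 CPM in the hrde-1 mutant, against 858, 766, 841 and 886 CPM in HC125. On chromosome III, the cluster of 7 fbxa genes at chrIII:1239048-1308294, with fbxa-61, had 4 falls and a summed level of 99.9 and 90.3 CPM in the hrde-1 mutant, against 432, 353, 312 and 281 CPM in HC125. Genes of 1 cluster can be alike in sequence, and the sources used here do not state how reads matching several genes were counted, so counts may be split between neighbours.

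**Figure D4:**
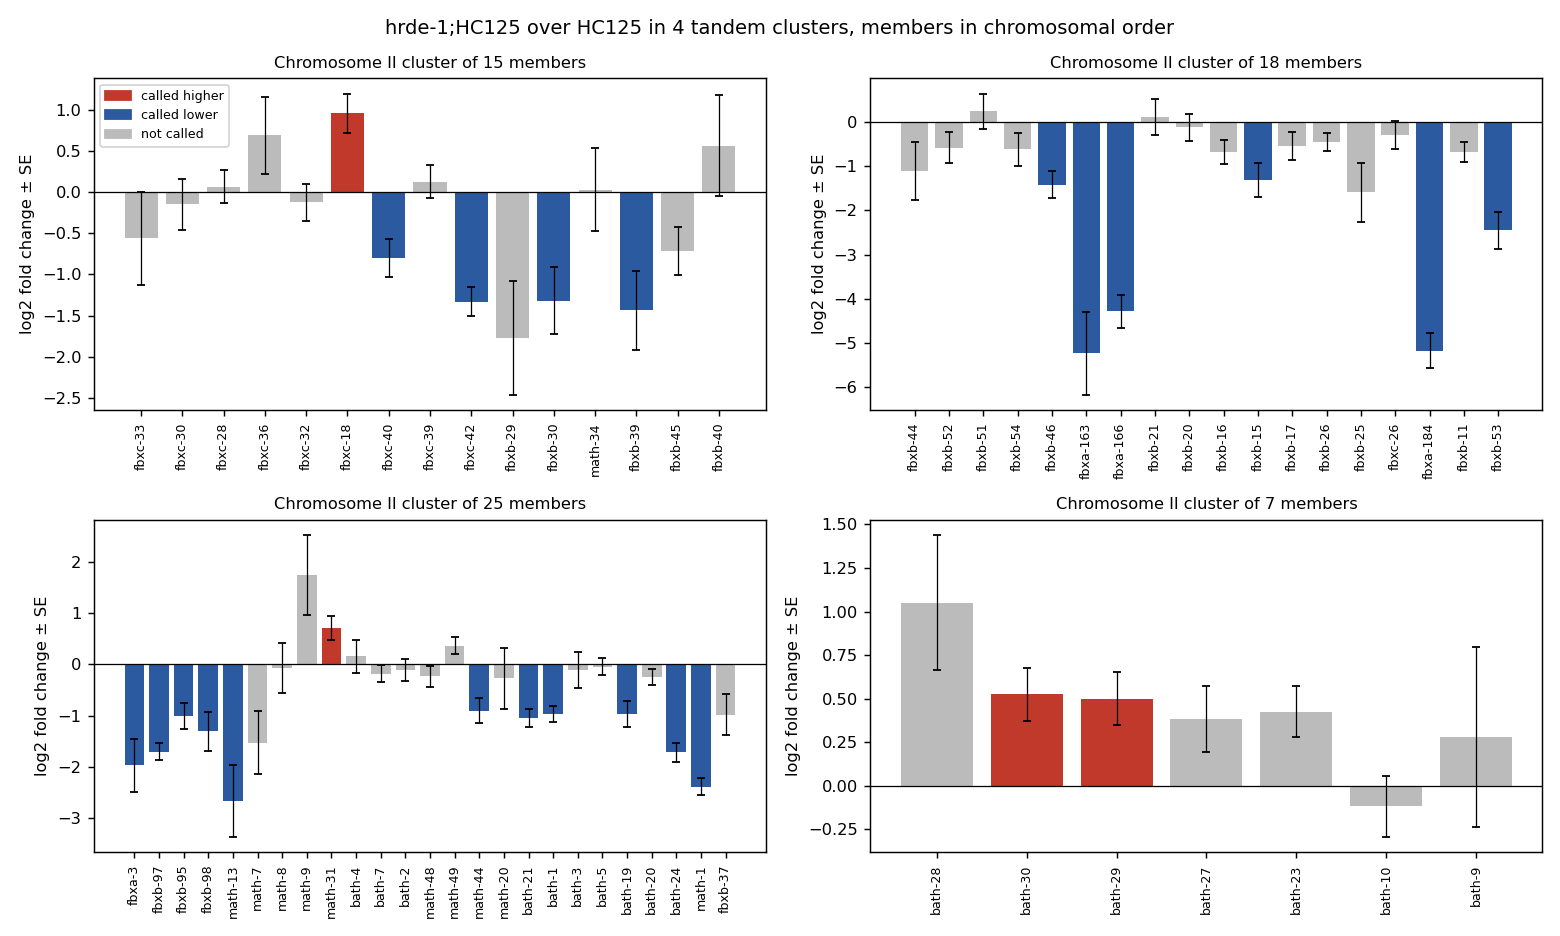
Log2 fold change of small RNAs in hrde-1;HC125 over HC125, with the SE as error bars, at the members of 4 clusters on chromosome II in chromosomal order. The clusters were made by distance alone, joining members no more than 50000 bp apart. Blue bars were called lower, red bars higher and grey bars neither. The clusters of 15, 18 and 25 members hold 4, 6 and 11 falls between uncalled genes, and the 7 bath genes hold 2 rises and no fall.

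The comparison of the hrde-1 mutant with N2 sets the mutant against the wild type and also differs from it by the array. Small RNAs fell at 58 members and rose at 7. The falls made up 31.7% of the members, against 8.89% of all genes tested and 9.4% of those with at least 100 counts, and the rises 3.83%, against 8.84% and 9.96%. The median log2 fold change was -0.66 over the members and -0.01 over all genes tested. Of the falls, 10 exceeded 8-fold. Because this comparison uses the same mutant libraries as the one with HC125, its values are given beside those and not as a second test. Without mutant replicate 2, 41 members were called, against 9.94% of all genes tested, and 36 of the 65 calls were made again in every fit that left out 1 library. The summed germline and oocyte list was 3969.6 to 4324 CPM in the hrde-1 mutant and 2545 to 2709 CPM in N2, with 8 of 15 genes called higher. The neuron list was 283 to 286 CPM in the mutant and 43.8 to 53.2 CPM in N2. Of its 4 genes tested, 2 were called higher, rab-3 (log2 fold change 1.67) and tax-4, and rgef-1 and tax-4 were at 0 in N2. The sperm list was 739.5 to 1081 CPM in the mutant and 789.8 to 2001 CPM in N2, with 3 of 38 called lower. The muscle list was 1331 to 2768 CPM in the mutant and 79.9 to 146 CPM in N2, with unc-54 alone called higher (log2 fold change 6.04). In HC125 against N2, unc-54 was called higher as well (4.97). The median log2 fold changes were 0.64 for the germline and oocyte list, 1.32 for neuron, -0.68 for sperm and -0.22 for muscle, against the direction of the muscle sum. The part of these lists was not tested.

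By family, 25 fbxa, 18 fbxb, 5 fbxc, 8 bath and 2 math genes fell against N2, and 4 fbxa, 1 fbxb and 2 fbxc genes rose. fbxa-184 stood at 1.84 and 1.89 CPM in the hrde-1 mutant, against 111 and 121 CPM in N2 (log2 fold change -5.93, SE 0.44, adjusted p = 2.40e-07). fbxa-120 stood at 41.1 and 33.2 CPM in the hrde-1 mutant, against 628 and 553 CPM in N2 (log2 fold change -3.98, SE 0.21, adjusted p = 4.17e-10). math-1 stood at 42.2 and 42.6 CPM in the hrde-1 mutant, against 335 and 295 CPM in N2 (log2 fold change -2.89, SE 0.18, adjusted p = 3.46e-09). At each of these genes the highest mutant library lay below the lowest N2 library. fbxa-163 had 2 counts in the hrde-1 mutant and 17 in N2, a ratio of 61.3 between N2 and the mutant in CPM with an exact 95% counting interval of 14.5 to 547. Its fitted log2 fold change was -4.96 without N2 replicate 1 and -6.41 without N2 replicate 2, against -5.73 with both. bath-20, not called against HC125, had 2891 and 2404 CPM in the hrde-1 mutant, against 4337 and 3938 CPM in N2 (log2 fold change -0.64, SE 0.18, adjusted p = 0.0163), and bath-13 had 484 and 393 CPM in the hrde-1 mutant, against 732 and 641 CPM in N2 (log2 fold change -0.64, SE 0.19, adjusted p = 0.024). Without N2 replicate 1 or mutant replicate 2 both calls ended, at log2 fold changes of -0.58 to -0.55 for bath-20 (adjusted p from 0.0556 to 0.159) and -0.56 to -0.54 for bath-13 (0.0988 to 0.199). The bath-20 call also ended in a fit of only the 2 groups (-0.68, adjusted p = 0.0622).

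fbxa-216 on chromosome I (chrI:11901660-11903310) fell in this comparison, with 29.0 and 31.8 CPM in the hrde-1 mutant, against 484 and 321 CPM in N2 (log2 fold change -3.71, SE 0.48, adjusted p = 5.98e-04). fbxa-112 (chrV:16947158-16948111) had 0.838 and 0.270 CPM in the hrde-1 mutant, against 15.5 and 13.5 CPM in N2 (log2 fold change -4.47, SE 0.82, adjusted p = 8.28e-04). Both N2 libraries were the 2 highest of the 12 at fbxa-112, where F21 replicate 2 had no count, and without mutant replicate 1 the log2 fold change was -5.45 (adjusted p = 0.00623). fbxa-111, which shares its strand and position, had 12.1 and 8.63 CPM in the hrde-1 mutant, against 149 and 172 CPM in N2 (log2 fold change -3.93, SE 0.68, adjusted p = 0.00503), and its call ended without mutant replicate 2 (log2 fold change -3.77, adjusted p = 0.0522).

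The rises against N2 were at fbxa-125, fbxa-16, fbxa-139, fbxa-206, fbxb-14, fbxc-32 and fbxc-52. fbxa-16 had 86.7 and 88.7 CPM in the hrde-1 mutant, against 26.6 and 34.8 CPM in N2 (log2 fold change 1.47, SE 0.24, adjusted p = 2.28e-04). fbxa-139 had 204 and 183 CPM in the hrde-1 mutant, against 88.7 and 93.2 CPM in N2 (log2 fold change 1.09, SE 0.18, adjusted p = 2.83e-04). These 2 rises kept their call without any 1 library. fbxa-125 had 181 and 159 CPM in the hrde-1 mutant, against 6.66 and 15.7 CPM in N2 (log2 fold change 3.77, SE 0.95, adjusted p = 0.0284), and its call ended without either N2 library, either mutant library or F6 replicate 2 (log2 fold change 3.42 to 4.69, adjusted p 0.0526 to 0.152). fbxb-14 had 4105 and 4006 CPM in the hrde-1 mutant, against 3303 and 2334 CPM in N2 (log2 fold change 0.53, SE 0.17, adjusted p = 0.0394), and its call ended without any of 8 libraries, which were both mutant and both F6 libraries, HC125 replicates 1 and 4, F21 replicate 1 and N2 replicate 2 (log2 fold change 0.32 to 0.52, adjusted p 0.0565 to 0.246). It also ended in a fit of only the 2 groups (0.49, adjusted p = 0.197) and without N2 replicate 2 and HC125 replicates 1 and 2 (0.32, adjusted p = 0.0546).

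fbxa-206 (chrV:16917201-16918478) had 126 and 131 CPM in the hrde-1 mutant, against 48.8 and 83.1 CPM in N2 (log2 fold change 0.90, SE 0.29, adjusted p = 0.0407). Its call ended without N2 replicate 1, either mutant library or either F6 library (log2 fold change 0.62 to 0.94, adjusted p 0.0679 to 0.219), and with library size scaling (0.79, adjusted p = 0.0673). fbxc-52 (chrII:3717261-3719764) had 54.8 and 43.7 CPM in the hrde-1 mutant, against 26.6 and 23.6 CPM in N2 (log2 fold change 1.00, SE 0.30, adjusted p = 0.0272). Its call ended without either N2 library or mutant replicate 1 (log2 fold change 0.82 to 1.06, adjusted p 0.0698 to 0.204), with DESeq2 (0.95, adjusted p = 0.0711) and without N2 replicate 2 and HC125 replicates 1 and 2 (0.92, adjusted p = 0.166). At both genes the HC125, F21 and F6 means also lay above the N2 mean.

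In the groups without the hrde-1 mutation, few members were called against N2 in the edgeR fit of 12 libraries. HC125 against N2 gave 1 call of 183, or 0.546%, against 0.506% of all genes tested (0.22% higher and 0.287% lower), and the median log2 fold change was -0.13 over the members and 0.01 over all genes. The call was a fall at fbxa-216, at 53.8, 116, 72.2 and 61.6 CPM in HC125 and 484 and 321 CPM in N2 (log2 fold change -2.38, adjusted p = 0.0411), which ended in 9 of the 12 fits that left out 1 library, with adjusted p of 0.0744 to 0.212. Those 9 libraries were both mutant, both F6 and both N2 libraries and HC125 replicates 1, 3 and 4. It also ended with library size scaling (adjusted p = 0.0518) and without N2 replicate 2 and HC125 replicates 1 and 2 (adjusted p = 0.0964). Omitting N2 replicate 2 and HC125 replicates 1 and 2 left N2 with the shallow replicate 1 alone. The median log2 fold change was then -0.38 over the members and 0.09 over all genes. F21 against N2 gave 0 calls of 183 with edgeR, against 0.201% of all genes tested (0.115% higher and 0.086% lower), and 0 with DESeq2. With edgeR, 23 of the 183 members had an unadjusted p under 0.05, against 1489 of the 10470 genes tested.

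F6 against N2 gave 3 calls of 183, a rise and 2 falls, against 1.43% of all genes tested (0.382% higher and 1.05% lower). The count was 14 without N2 replicate 1, against 4.99% of all genes tested. It was 0 without N2 replicate 2, F6 replicate 1 or F6 replicate 2, against 0.299%, 0.399% and 0.333% of all genes tested. The sperm list was 449.8 to 456 CPM in F6 and 789.8 to 2001 CPM in N2, with msp-38 and msp-152 of the 38 tested called lower, and its part in the result was not tested. fbxa-216 had 47.4 and 54.5 CPM in F6, against 484 and 321 CPM in N2 (log2 fold change -2.96, SE 0.47, adjusted p = 0.0211). fbxa-136 on chromosome V (chrV:17521035-17527479) had 41.6 and 54.5 CPM in F6, against 122 and 103 CPM in N2 (log2 fold change -1.21, SE 0.25, adjusted p = 0.0243). Both calls ended without N2 replicate 2 or without either F6 library, at adjusted p of 0.109 to 0.219 for fbxa-216 (log2 fold change -3.22 to -2.85) and 0.101 to 0.281 for fbxa-136 (-1.46 to -1.01). N2 had the 2 highest levels of all 12 libraries at fbxa-136, and at fbxa-216 F21 replicate 2 also reached the N2 range. fbxc-32 (chrII:946485-948191) had 33.9 and 30.4 CPM in F6, against 13.3 and 8.98 CPM in N2 (log2 fold change 1.60, SE 0.37, adjusted p = 0.0399). This call ended in 7 of the 12 fits that left out 1 library, namely N2 replicate 2, HC125 replicate 3, F21 replicate 1 and each mutant and F6 library (log2 fold change 1.29 to 1.64, adjusted p 0.0530 to 0.410). Without N2 replicate 2 and HC125 replicates 1 and 2, the calls of fbxc-32 (1.32, adjusted p = 0.192) and fbxa-216 (-3.19, adjusted p = 0.101) ended.

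fbxc-32 and fbxa-136 separated N2 from every other group. At fbxc-32 the mutant libraries had 28.7 and 31.5 CPM, the HC125 libraries 17.2, 36.5, 32.2 and 37.1 CPM and the F21 libraries 31.0 and 31.1 CPM, all above both N2 libraries. Against N2, the hrde-1 mutant had a log2 fold change of 1.504 at fbxc-32 (adjusted p = 0.00854 with edgeR), and without N2 replicate 2 it was 1.196 with adjusted p = 0.169. The call also ended without that library and HC125 replicates 1 and 2 (1.19, adjusted p = 0.121). At fbxa-136 the levels were 56.8 and 67.9 CPM in the hrde-1 mutant, 43.0, 80.6, 57.7 and 51.6 CPM in HC125 and 72.8 and 50.5 CPM in F21, all below both N2 libraries. There the hrde-1 mutant had a log2 fold change of -0.84 against N2 (adjusted p = 0.0263 with edgeR), and the call ended without any 1 of the mutant or N2 libraries (-1.01 to -0.71, adjusted p 0.0561 to 0.161). All these contrasts share the 2 N2 libraries, so their directions are not independent.

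The comparison of F21 with F6 sets de-silenced against silenced worms of the non-array line. No member of 183 was called with edgeR, against 0.143% of all genes tested (0.0573% higher and 0.086% lower). In the same fit, 5 of the 183 members had an unadjusted p under 0.05, against 290 of the 10470 genes tested. DESeq2 called 1, fbxa-216, at a log2 fold change of 2.27 (adjusted p = 3.48e-05). Other edgeR settings called fbxa-125, at a log2 fold change of 1.87 in each. These were no filter (adjusted p = 3.52e-05), a fit of only the 2 groups (0.0196) and omission of HC125 replicate 2 (0.00832). No filter also called fbxa-216 (2.17, adjusted p = 2.24e-19), and the fit of only the 2 groups also called bath-15 (0.56, adjusted p = 0.0194). fbxa-216 had 138 and 354 CPM in F21, against 47.4 and 54.5 CPM in F6 (edgeR log2 fold change 2.18, adjusted p = 0.276). The groups did not overlap, and the 2 F21 libraries differed from each other by more than 2-fold. The median log2 fold change was -0.05 over the members and -0.01 over all genes tested. Across all 5 groups at once, 66 of the 183 members differed, or 36.1%, against 16.9% of all genes tested, and without mutant replicate 2 the count was 30, against 9.33% of all genes tested.

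Other genes of SCF and CUL-3 ligases had calls in 2 of the 6 comparisons. A list of 71 partner genes, made up of cullins, RING proteins, SKP1-related genes, cullin modification genes and other F-box and BTB genes, had 58 tested. In the hrde-1 mutant against HC125, kel-1 and lin-23 were called higher and btb-4, btb-12, kel-3, kel-8 and skr-18 lower, 7 of 58 against 17% of all genes tested, with a median log2 fold change of 0.01. In the hrde-1 mutant against N2, csn-6, kel-1 and lin-23 were called higher and btb-4, btb-12, kel-3 and kel-8 lower, 7 of 58 against 17.7% of all genes tested, with a median of -0.04. Only kel-1 kept its call against both HC125 and N2 in every alternative fit. Against HC125, the call of skr-18 ended without either mutant library or HC125 replicate 3 (log2 fold change -0.58 to -0.41, adjusted p 0.0908 to 0.15), that of lin-23 without either mutant library or with library size scaling (0.44 to 0.64, adjusted p 0.0698 to 0.239), and that of btb-4 without mutant replicate 2 or in a fit of only the 2 groups (-0.93 to -0.75, adjusted p 0.0641 to 0.237). Against N2, the call of csn-6 ended in 10 alternative fits, DESeq2 and library size scaling among them (0.53 to 0.84, adjusted p 0.0581 to 0.24), that of kel-3 in 9 (-0.64 to -0.42, adjusted p 0.0525 to 0.245), that of btb-12 in 7 (-1.20 to -0.80, adjusted p 0.0658 to 0.17) and that of kel-8 in 3 (-4.53 to -3.26, adjusted p 0.065 to 0.101). No partner gene was called in the other 4 comparisons with edgeR. There 3 of the 58 had an unadjusted edgeR p under 0.05 in HC125 against N2 and 6 in F21 against N2. The count was 7 in F6 against N2 and 2 in F21 against F6. In the same order, 1101, 1489, 2053 and 290 of the 10470 genes tested had such a p. DESeq2 called 0 partner genes in each of these 4 comparisons but F6 against N2, where it called kel-10 alone. The 5 cullins tested, the 2 RING proteins and the 12 cullin modification genes had no call against HC125.

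kel-1, a kelch-repeat gene with a BTB domain, had 1137 and 959 CPM in the hrde-1 mutant, against 331, 259.8, 402 and 386 CPM in HC125 (log2 fold change 1.60, SE 0.18, adjusted p = 3.19e-06), and 408 and 256 CPM in N2 (log2 fold change 1.68, SE 0.22, adjusted p = 3.24e-05). Both mutant libraries lay above the other 10. btb-12 had 13.9 and 14.6 CPM in the hrde-1 mutant, against 25.8, 26.3, 28.9 and 32.4 CPM in HC125 (log2 fold change -1.03, SE 0.23, adjusted p = 0.00311), and its call ended without mutant replicate 1 (log2 fold change -0.98, adjusted p = 0.0601). kel-8 had 3.86 and 1.89 CPM in the hrde-1 mutant, against 15.1, 13.6, 47.7 and 41.3 CPM in HC125 (log2 fold change -3.40, SE 0.78, adjusted p = 0.0144). Its call ended without mutant replicate 1 (-4.05, adjusted p = 0.0870) and without replicate 2 (-3.06, adjusted p = 0.124). kel-3 fell by less, with 47.6 and 47.2 CPM in the hrde-1 mutant, against 75.3, 64.5, 70.5 and 70.5 CPM in HC125 (log2 fold change -0.56, SE 0.15, adjusted p = 0.0142), and its call ended without either mutant library (adjusted p = 0.132 and 0.0991) and with no filter (adjusted p = 0.0607).

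lin-23, the F-box subunit of an SCF ligase that limits cell division, had 107 and 118 CPM in the hrde-1 mutant, against 46.6 and 73.0 CPM in N2 (log2 fold change 0.85, SE 0.21, adjusted p = 0.00973). That call ended without N2 replicate 1 (log2 fold change 0.61, adjusted p = 0.09997) or mutant replicate 2 (0.74, adjusted p = 0.0867). btb-4 had 35.5 and 26.4 CPM in the hrde-1 mutant, against 82.1 and 90.9 CPM in N2 (log2 fold change -1.48, SE 0.30, adjusted p = 0.00293), and its call ended without N2 replicate 2 (-1.37, adjusted p = 0.0530). In both genes the 2 groups did not overlap.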

How the data were processed

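Small RNA libraries were made after polyphosphatase treatment and amplified for 12 cycles, per the labels' protocols. The authors deposited raw counts of 21 to 26 nucleotide reads per gene. Bowtie2 and HTSeq are named, per the submitters' processing notes. The sources used here do not give their versions, the genome build, the strand setting or the handling of multiply matching reads. Gene symbols and coordinates came from the Ensembl 115 annotation of WBcel235 through WBGene identifiers, which matched 20194 of 20541 rows. All 12 libraries with a column entered 1 edgeR 4.0.16 quasi-likelihood fit (R 4.3.3, limma 3.58.1) of 5 groups with TMM scaling, filterByExpr (count minimum 10, total minimum 15), 7 residual degrees of freedom and Benjamini-Hochberg adjustment over the 10470 genes tested, with a threshold of 0.05. The script was tested on simulated data. The 2 HC125 libraries of the 5′-dependent kind are not analysed here.

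Members, gene lists and the libraries left out together were chosen with earlier results of these data known. Named in each comparison were at most 8 rising and 8 falling called members, by size of change, whose libraries did not overlap and whose higher group averaged at least 10 CPM. Also named were the 10 members with the highest CPM, the 3 per family with the highest CPM per kb, genes at the count threshold and up to 4 called partner genes per comparison. Alternatives were library size scaling, no filter, a replicate block, only the groups compared, DESeq2 1.42.0, and omission of libraries. Depth differed 14.1-fold: 3 counts, the floor used here, equal 0.503 CPM in the deepest library by effective size and 6.66 CPM in the shallowest. Members with near-identical sequence could not be set apart, since no transcript sequences were used here.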

Additional observations from a re-analysis of the deposited data

Results flagged for a closer look

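Of the 35 members named by rule, 3 had 1 HC125 library set apart from the other 3 by a gap above Dixon's 95% critical value, as a share of the group's range. Chance alone does this in about 1 of 20 such groups of 4. At fbxa-125, HC125 replicate 2 had 56.9 CPM, against 9.21 to 10.8 CPM in the other HC125 libraries. At bath-38, HC125 replicate 1 had 15.1 CPM, against 5.09 to 6.66 CPM. At fbxa-90, HC125 replicate 1 had 25.8 CPM, against 11.9 to 13.4 CPM. HC125 replicate 1 is the shallowest library, with 451389 counts, so at bath-38 its value rests on 7 counts. No other group has 4 libraries, and groups of 2 were not looked at in this way.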

How the results depend on the processing

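The count of members called in hrde-1;HC125 against HC125 was 68, and 62 to 83 under library size scaling, no filter, the replicate block, a fit of only the groups compared, DESeq2 and omission of N2 replicate 2 with HC125 replicates 1 and 2. Against N2 it was 65, and 56 to 74 under the same settings. Leaving aside the omission, these settings called 11.2% to 20.2% of all genes tested against HC125 and 13.4% to 22.7% against N2. The fit of 12 libraries called 17% and 17.7%. In each case that follows, the percent in brackets is the share of all genes tested that the same fit called. In HC125 against N2, 1 member was called, but 6 with no filter (1.41%), 0 with the replicate block (0.411%), 25 without those 3 libraries (4.25%) and 3 with DESeq2 (0.926%). In F21 against N2 the count of 0 became 7 with no filter (3.64%) and 1 without the 3 libraries (1.25%). In F6 against N2 the count of 3 became 15 with no filter (6.5%), 11 with the replicate block (8.04%), 5 in a fit of only those groups (6.45%) and 6 with DESeq2 (5.19%). In F21 against F6 the count of 0 became 2 with no filter (0.769%), 2 in a fit of only those groups (1.03%), 2 without the 3 libraries (0.784%) and 1 with DESeq2 (0.372%). Across all 5 groups the count of 66 became 113 without the 3 libraries (28.6%). Where 1 library at a time was left out, the counts ran from 41 to 72 for hrde-1;HC125 against HC125, 41 to 70 against N2, 0 to 4 for HC125 against N2, 0 to 3 for F21 against N2, 0 to 14 for F6 against N2, 0 to 1 for F21 against F6 and 30 to 81 across the 5 groups. Leaving out those 3 libraries, or 1 library of a group of 2, leaves a group with 1 library. Its spread is then taken from the other groups. The share of all genes tested that was called also moved between the fits with 1 library left out. This share ran from 10.1% to 17.5% for hrde-1;HC125 against HC125 and from 9.94% to 19.4% against N2. It ran from 0.256% to 0.84% for HC125 against N2, 0.0855% to 0.911% for F21 against N2 and 0.299% to 4.99% for F6 against N2. For F21 against F6 it was 0.0571% to 0.341%, and across the 5 groups it was 9.33% to 20.4%. The cause of these shifts was not tested.

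Libraries of the same replicate number were compared by their deviations from the group mean. Of 20 same-number pairs, 2 were correlated above 0.1, with r from -0.26 to 0.32. Of the 10 libraries numbered 1 or 2, 7 matched their own number best. In a group of 2 the deviations mirror each other, so a pair of such groups gives the same r for both numbers. This check therefore cannot tell if the numbers pair the libraries. With the replicate block, 73 members were called in hrde-1;HC125 against HC125, 74 against N2 and 91 across the 5 groups. In the same order, the block called 20.2%, 22.7% and 27% of all genes tested. Of the 68 member calls in hrde-1;HC125 against HC125, 55 were kept under it. Among the members named by rule, the calls of fbxc-18 (log2 fold change 0.51, adjusted p = 0.0598), bath-38 (1.04, adjusted p = 0.16) and bath-36 (1.06, adjusted p = 0.141) ended. Among the partner genes, those of kel-8 (-2.14, adjusted p = 0.181), skr-18 (-0.38, adjusted p = 0.153) and btb-12 (-0.90, adjusted p = 0.0538) ended. The fbxa-216 call in HC125 against N2 also ended (-2.20, adjusted p = 0.547), and the log2 fold changes against HC125 became 2.10 at fbxa-125, -6.16 at fbxa-163 and -3.82 at fbxa-111, with the calls kept. Without the 3 libraries together these became 4.19 at fbxa-125, -4.47 at fbxa-163 and -2.11 at fbxa-111, and against N2 4.69 at fbxa-125 and -6.46 at fbxa-163, all called. The 49 called results of single named members were refitted 882 times in all; 780 refits kept the call, 102 lost it and 0 turned its direction. Library size scaling moved the median of all genes by -0.12 in hrde-1;HC125 against HC125 and by -0.10 against N2. Under it the single HC125 against N2 call was a rise at fbxc-32 (log2 fold change 1.64, adjusted p = 0.0490). In the shallow libraries, N2 replicate 1, HC125 replicate 1 and F21 replicate 2, 3 counts equal 5.83 to 6.66 CPM, so changes at members near that level were not detectable there.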

Other observations

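Some members were called between F6 and N2 under settings other than the edgeR fit of 12 libraries, and those given here were picked after their values were seen. fbxa-41 had 42.3 and 44.1 CPM in F6 and 106 and 187 CPM in N2, with an adjusted p of 0.161 in the edgeR fit of 12 libraries and a log2 fold change of -1.86 with DESeq2 (adjusted p = 0.0092). fbxa-224 had 14.8 and 14.5 CPM in F6 and 22.2 and 107 CPM in N2, with adjusted p = 0.188 in that edgeR fit and a log2 fold change of -2.24 with DESeq2 (adjusted p = 0.0334). fbxa-61 had 136 and 124 CPM in F6 and 206 and 286 CPM in N2, with adjusted p = 0.0503 in the edgeR fit and a log2 fold change of -1.01 with DESeq2 (adjusted p = 0.0106). At all 3 genes both F6 libraries lay below both N2 libraries. The F21 levels were 39.1 and 77.8 CPM at fbxa-41, 22.2 and 19.4 CPM at fbxa-224 and 158 and 157 CPM at fbxa-61. Rises were also called under other settings. With no filter, fbxb-100 had a log2 fold change of 0.67 (adjusted p = 0.0108), with 667 and 681 CPM in F6 and 530.2 and 355 CPM in N2, and an adjusted p of 0.0959 in the edgeR fit of 12 libraries. With no filter, that of fbxc-40 was 1.07 (adjusted p = 0.0235), with 49.4 and 48.0 CPM in F6 and 33.3 and 17.96 CPM in N2, and an adjusted p of 0.0996 in that edgeR fit. That of bath-41 was 0.79 (adjusted p = 0.00207), with 423 and 410.1 CPM in F6 and 317 and 187 CPM in N2, and an adjusted p of 0.349 in that edgeR fit. Without N2 replicate 1, 10 members were called higher and 4 lower, against 1.49% and 3.5% of all genes tested.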
